A study of Mus musculus with 3 samples.

Results

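The genes described here encode membrane carriers that move organic substrates: sugars, amino acids, organic anions and cations, monocarboxylates, and a mixed group of peptides, nucleosides, ascorbate, fatty acids and vitamins. They were taken by current mouse symbol, as genes named Slco or belonging to solute carrier (Slc) families 1, 2, 3, 5, 6, 7, 10, 15, 16, 22, 23, 27, 28, 29, 36, 37, 38, 43 or 47. The families were picked with earlier results of these data known. On the array 95 such genes had 131 of the 16281 rows, against 10698 named genes in all. Of these carriers 58 had a row with a ratio in all mice and were tested, or 61.1% against 67.4% of all named genes. Another 24 had a ratio in 1 or 2 mice on their best row, 15 of which were tested only in an alternative that accepts ratios in 2 mice, and 13 were listed at exact 0 in every mouse. The tested carriers comprised 11 for sugars, 20 for amino acids, 14 for organic ions, 6 for monocarboxylates and 7 of the mixed group. Classes follow gene family, so that of the amino acid carriers also holds the betaine and monoamine transmitter carriers of family 6.

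Total RNA of whole kidney from 3 BALB/c mice with glomerulonephritis, taken 11 days after injection of antibody against the glomerular basement membrane (GBM), was labelled with Cy5. On each of 3 arrays 1 nephritic mouse was set against the same Cy3-labelled pool of kidney RNA from 5 normal BALB/c mice. The pool counts as 1 control sample, so each ratio was tested against 0, and the spread between normal mice and any dye bias were not measured. An array gave a usable ratio for 10998 to 11930 rows. Each value is a log ratio, in the unit the authors deposited, after centring of its array. A positive value is taken as higher in nephritic kidney, the likely direction from the dye labels. The base of the logarithm is not given in the sources used here. The mean over mice that lay farthest from 0 among the carriers, -2.40, would stand for a 5.26-fold decrease if the base were 2, 11-fold if it were natural and 248-fold if it were 10. The labels give no age or sex of the mice, and a ratio does not show a gene's level in either channel.

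Carriers of the proximal tubule recover what the glomerulus filters and secrete what the body discards. Sodium-coupled carriers on the luminal side, driven by the sodium pump, take up glucose, amino acids and lactate. Facilitative carriers and exchangers on the blood side let them out. Organic anions and cations run mostly the other way: carriers on the blood side take up drugs, toxins and metabolites, which efflux carriers then pass into the urine.

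Carriers were more often lower than higher in nephritic kidney. Of the 58 tested, 28 fell, 8 rose and 22 did not pass at an adjusted p of 0.05 (limma, Benjamini-Hochberg over all 8449 features). Of all features tested, 43.1% passed, 22.3% as lower and 20.8% as higher, while among the carriers 48.3% were lower and 13.8% higher. Their median was -0.21, between -0.23 and -0.17 in the 3 mice, beside -0.0081 for all features. Without mouse 3 the calls were 22 lower and 4 higher. When exact 0, read as missing throughout, was kept as a ratio of 0, 8 of the 28 falls and 3 of the 8 rises still passed. That setting also brings rows at 0 from the whole table into the fit. The spread limma borrows and the number of features adjusted for depend on them. An ordinary one-sample test with no moderation passed 0 of the 58, although 30 had an unadjusted p under 0.05 by that test and 43 by limma. Calls that held in every alternative other than this ordinary test numbered 10: falls of Slco1a6, Slc1a6, Slc22a4, Slc6a4, Slc2a2, Slc2a4, Slc37a4 and Slc16a11, and rises of Slc16a1 and Slco3a1.

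**Figure D1:**
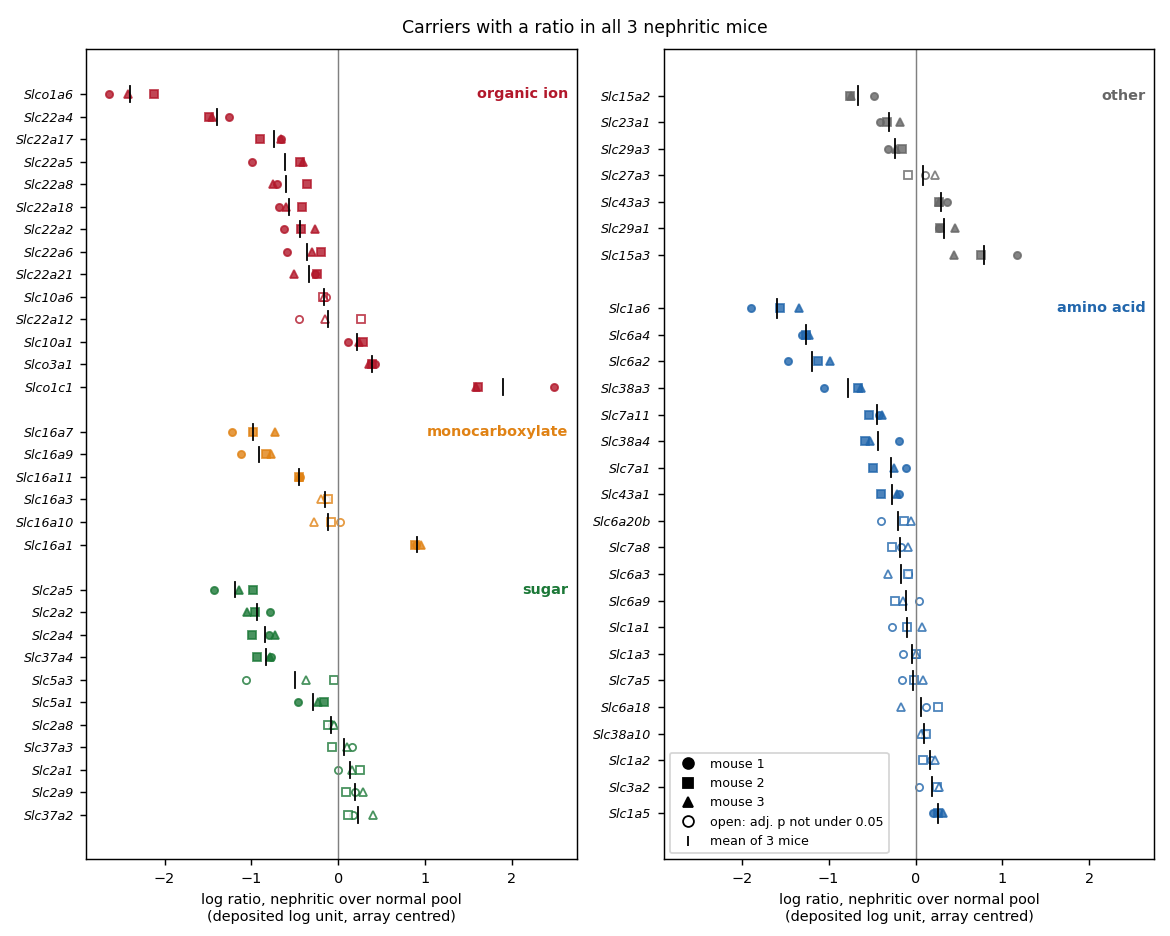
Log ratio (x axis, deposited log unit) of each tested carrier in mouse 1 (circle), mouse 2 (square) and mouse 3 (triangle), grouped by class and ordered by mean (black tick); open symbols mark genes that did not pass. Slco1a6 lies between -2.64 and -2.12 and Slco1c1 between 1.58 and 2.48, while most carriers lie below 0.

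Of all features tested, 43.1% passed, 22.3% as lower and 20.8% as higher. The share that passed was near this for sugar (45.5%) and amino acid carriers (45%). It was larger for organic ion (85.7%) and monocarboxylate carriers (66.7%) and for the mixed group (85.7%), all with few members. Organic ion carriers had 9 lower and 3 higher of 14, with a median of -0.40. Monocarboxylate carriers had 3 lower and 1 higher of 6 with a median of -0.30, and sugar carriers 5 lower and 0 higher of 11 with a median of -0.29 (2 with a positive mean had an unadjusted limma p under 0.05, 1 passed as higher without centring and 2 without mouse 1). Amino acid carriers had 8 lower, 1 higher and 11 not passing of 20, with a median of -0.17. The mixed group had 3 lower and 3 higher of 7 and a median of 0.082. Differences between the classes were not tested, and the mice overlapped: the sugar median was -0.46, -0.12 and -0.23 in mice 1, 2 and 3, and the organic ion median -0.61, -0.30 and -0.35. The amino acid median stayed within -0.18 to -0.16 and lay above the organic ion median in each mouse. Mouse 1 had the lowest of the 3 values in 26 of the 58 carriers, or 44.8%, against 34.7% of all features.

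**Figure D2:**
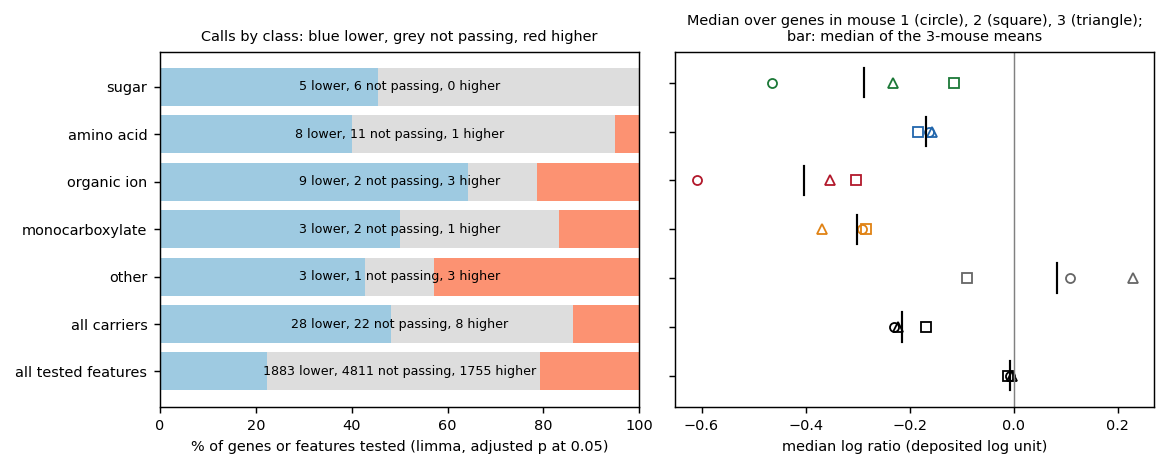
Left, share (%) of tested genes called lower (blue), not passing (grey) or higher (red) in each class, with counts. Right, median log ratio over genes in each mouse and the median of the 3-mouse means (bar); organic ion carriers have the lowest median, -0.40, and all features lie near 0.

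Markers of proximal tubule were lower in the same mice, and markers of leukocytes higher. Of 10 measured proximal tubule markers 9 fell and 1 did not pass, with values from -1.37 (Fbp1) to -0.063 (Alpl) and a median of -0.71. All 10 measured leukocyte markers rose, from 0.54 for Cd68 to 1.69 for Lyz2, with a median of 0.98. Of 7 endothelial markers 1 rose and 6 did not pass. Falls were not confined to proximal tubule markers. Of 7 distal nephron markers, 3 fell (Pvalb at -1.58, Egf at -1.14 and Slc12a1 at -0.87), 1 rose (Aqp2 at 0.29) and 3 did not pass. Over all features 22.3% were lower and 20.8% higher. In whole kidney, fewer cells of a type and less RNA per cell cannot be told apart, and the part of these shifts in the values below was not tested.

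Organic anion and cation carriers of the Slc22 family were lower nearly throughout. All 9 Slc22 members measured lay below 0, and 8 of them fell, with a family median of -0.57. Over all features 51.1% lay below 0, 22.3% passed as lower and 20.8% as higher. Slc22a6 (OAT1) and Slc22a8 (OAT3), the exchangers that load organic anions into proximal tubule cells from blood, both fell. They lie close together on mouse chromosome 19. Both fell, as did most of the family, and their mice did not follow the same order. The 250 bases before each start are shown here, followed by those of Slco1a6, the lowest carrier, and of Slc16a1, the highest carrier outside the Slco family. The sequences come from the RefSeq table of build GRCm38.p6, in which 46 of the 58 tested carriers had a window. They span chr19:8617746-8617995 and chr19:8592932-8593181 (plus strand), chr6:142186150-142186399 (minus strand) and chr3:104638414-104638663 (plus strand). Capitals mark the letters GTTAAT of the HNF1 core in Slc22a6 and Slc22a8, the interferon response core, read from the opposite strand, in Slco1a6 and CACGTG (E-box) in Slc16a1.
Slc22a6: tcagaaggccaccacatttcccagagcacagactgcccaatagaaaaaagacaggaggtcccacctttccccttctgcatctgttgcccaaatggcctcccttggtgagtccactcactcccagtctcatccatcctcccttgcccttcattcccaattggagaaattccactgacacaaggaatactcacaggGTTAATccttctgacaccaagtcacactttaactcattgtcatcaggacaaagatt
Slc22a8: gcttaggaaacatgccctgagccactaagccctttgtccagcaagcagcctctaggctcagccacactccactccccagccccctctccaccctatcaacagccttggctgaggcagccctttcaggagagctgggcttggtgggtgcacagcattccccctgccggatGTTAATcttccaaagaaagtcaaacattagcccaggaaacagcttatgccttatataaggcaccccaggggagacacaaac
Slco1a6: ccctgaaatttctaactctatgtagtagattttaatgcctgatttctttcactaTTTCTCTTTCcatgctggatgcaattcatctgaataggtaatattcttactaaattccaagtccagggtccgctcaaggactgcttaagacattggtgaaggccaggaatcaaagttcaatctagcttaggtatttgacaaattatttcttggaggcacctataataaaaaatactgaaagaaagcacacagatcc
Slc16a1: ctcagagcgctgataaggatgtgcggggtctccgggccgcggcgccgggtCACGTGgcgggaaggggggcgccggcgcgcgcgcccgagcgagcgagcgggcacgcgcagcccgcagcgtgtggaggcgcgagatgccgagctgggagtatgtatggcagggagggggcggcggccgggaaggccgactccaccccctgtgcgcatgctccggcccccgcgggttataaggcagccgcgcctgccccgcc

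The HNF1 core began at base -56 in Slc22a6 and at base -81 in Slc22a8, counted back from the start. Both strands were searched for 7 motifs in windows of 250 bases, of which the table has 32851. GTTAAT was in 6.43% of all windows and, by gene, in 7.49% of genes, in 2 of the 22 falling carriers with a window (Slc22a6 and Slc22a8), 0 of 4 rising and 1 of 20 not passing (Slc16a10). CACGTG was in 6.02% of windows and, by gene, in 6.86% of genes, in 4 falling carriers (Slc1a6, Slc22a4, Slc43a1 and Slc5a1), 2 rising (Slc16a1 and Slc29a1) and 2 not passing (Slc37a3 and Slc6a3). Slc29a1 has several windows, of which 1 held it, and these shares were not tested. TGAGTCA (AP-1) was in 4.46% of windows and, by gene, in 5.16% of genes, in 1 falling carrier, Slc7a1, and in 2 not passing, Slc2a9 and Slc37a2. The interferon response core was in 2.98% of windows and, by gene, in 3.46% of genes, and in only Slco1a6 of these 46 carriers. The full HNF1 site, which contains the HNF1 core, CAAAGTCCA (HNF4 core) and the PPAR direct repeat were in 0.00913%, 0.384% and 0.0335% of windows and in 0 of these carriers. These matches describe letters only and say nothing of binding.

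Slc22a6 stood at -0.59 in mouse 1, -0.20 in mouse 2 and -0.30 in mouse 3, a mean of -0.36 ± 0.2 (SD, n = 3; limma adjusted p = 0.0169). All mice were below 0, mouse 1 the farthest, and the 2 rows of the gene gave means of -0.36 and -0.37. Slc22a8 stood at -0.70 in mouse 1, -0.36 in mouse 2 and -0.75 in mouse 3, a mean of -0.60 ± 0.214 (SD, n = 3; limma adjusted p = 0.0025), with mouse 2 nearest to 0. Its second row was listed at 0 in every mouse, and the mean was -0.29 (limma adjusted p = 0.109) with exact 0 kept, where the call was lost. Slc22a2 (OCT2), the blood-side carrier of organic cations, was at -0.63 in mouse 1, -0.44 in mouse 2 and -0.26 in mouse 3, a mean of -0.44 ± 0.183 (SD, n = 3; limma adjusted p = 0.00668). Slc47a1, the luminal exporter that passes these cations into urine, had ratios in mice 1 and 2 alone, -0.46 and -0.33, and passed where ratios in 2 mice sufficed, at -0.39 (limma adjusted p = 0.0207).

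Carriers of carnitine and ergothioneine fell as well. Slc22a4 (OCTN1), which takes up the antioxidant ergothioneine, was at -1.26 in mouse 1, -1.49 in mouse 2 and -1.45 in mouse 3, a mean of -1.40 ± 0.122 (SD, n = 3; limma adjusted p = 5.63e-05). Every mouse was at -1.26 or lower. Slc22a5 (OCTN2), the high-affinity carnitine carrier, was at -0.99 in mouse 1, -0.44 in mouse 2 and -0.40 in mouse 3, a mean of -0.61 ± 0.331 (SD, n = 3; limma adjusted p = 0.00727). Mouse 1 was the lowest, and the other mice were close together. Slc22a21, a close relative that also carries carnitine, was at -0.34 ± 0.142 (limma adjusted p = 0.0126), and without mouse 3 it was at -0.26 (limma adjusted p = 0.131). These genes have similar sequences, and how far the array rows tell them apart was not analysed here.

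Slc22a17, a receptor for the iron-carrying protein lipocalin-2, was at -0.66 in mouse 1, -0.90 in mouse 2 and -0.66 in mouse 3, a mean of -0.74 ± 0.137 (SD, n = 3; limma adjusted p = 0.00051). Slc22a18 was at -0.68 in mouse 1, -0.42 in mouse 2 and -0.60 in mouse 3, a mean of -0.57 ± 0.136 (SD, n = 3; limma adjusted p = 0.0015), with row means of -0.73 and -0.40. The exception among the measured Slc22 genes was Slc22a12 (URAT1), the luminal urate exchanger: its mice disagreed in sign, at -0.45 in mouse 1, 0.26 in mouse 2 and -0.15 in mouse 3, and the 95% interval of its mean, -0.11, ran from -0.42 to 0.19. Without mouse 1 its mean turned to 0.055 (limma adjusted p = 0.674).

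The organic anion transporting polypeptides (Slco) held both the lowest and the highest carrier. Slco1a6, an anion carrier of mouse kidney, was at -2.64 in mouse 1, -2.12 in mouse 2 and -2.42 in mouse 3, a mean of -2.40 ± 0.264 (SD, n = 3; limma adjusted p = 3.86e-05). All mice lay at -2.12 or less, while the median of the 10 nearest measured rows on the array's row numbering was -0.20. Its relative Slco1a1 had no row with a ratio in all mice: 1 row gave -1.51 in mouse 1 and another gave -0.23 in mouse 2 and -0.13 in mouse 3. Slco1a5 was at -0.36 in mouse 1, and Slco1a4, a carrier better known from liver and brain capillaries, was at 0.16 and 0.11 in mice 1 and 3. Where ratios in 2 mice sufficed, Slco1a1 and Slco1a4 did not pass, at -0.18 (limma adjusted p = 0.174) and 0.14 (limma adjusted p = 0.273), and Slco1a5 had a ratio in too few mice for a test.

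Slco1c1, a thyroxine carrier known from brain capillaries, was at 2.48 in mouse 1, 1.61 in mouse 2 and 1.58 in mouse 3, a mean of 1.89 ± 0.512 (SD, n = 3; limma adjusted p = 0.000295). Mouse 1 was the highest and no mouse lay below 1.58. A second row of this gene was listed at 0 in all mice, so the rise rests on 1 row. With exact 0 kept it was at 0.95 (limma adjusted p = 0.0769) and did not pass. Slco3a1, a widely made carrier of prostaglandins and other anions, was at 0.42 in mouse 1, 0.39 in mouse 2 and 0.35 in mouse 3, a mean of 0.39 ± 0.0352 (SD, n = 3; limma adjusted p = 0.0037). Its 2 rows gave means of 0.38 and 0.39.

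Bile acid carriers of family 10 gave little. Slc10a1, the bile acid uptake carrier of liver cells, passed at 0.21 ± 0.0875 (limma adjusted p = 0.0487), but its 2 rows were opposite in sign, at -0.19, -0.34 and -0.13 in mice 1, 2 and 3 on the first row and 0.42, 0.90 and 0.61 on the second. That call was lost without mouse 2, at 0.18 (limma adjusted p = 0.205), without mouse 3, at 0.20 (limma adjusted p = 0.269), and when ratios in 2 mice sufficed, at 0.21 (limma adjusted p = 0.0583). Slc10a6, a steroid sulfate carrier, was at -0.16 ± 0.0141 and did not pass (limma adjusted p = 0.0839). It passed with exact 0 kept, at -0.15 (limma adjusted p = 0.0326). The luminal bile acid carrier Slc10a2 had values of -0.76 and -0.48 in mice 1 and 3, and passed where 2 mice sufficed, at -0.62 (limma adjusted p = 0.00647).

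Of the 6 measured carriers of the Slc2 family, which pass sugars without sodium, 3 fell and 3 did not pass. The share of this family that passed, 50%, was near the 43.1% of all features, of which 22.3% were lower. Slc2a5 (GLUT5), the fructose carrier, was the lowest of the class at -1.43 in mouse 1, -0.98 in mouse 2 and -1.15 in mouse 3, a mean of -1.19 ± 0.226 (SD, n = 3; limma adjusted p = 0.000191). Slc2a2 (GLUT2), by which glucose leaves early proximal tubule cells toward blood, was at -0.79 in mouse 1, -0.96 in mouse 2 and -1.06 in mouse 3, a mean of -0.93 ± 0.135 (SD, n = 3; limma adjusted p = 0.000211). In both genes every mouse lay at -0.79 or lower. Slc2a4 (GLUT4), the insulin-regulated glucose carrier, was at -0.80 in mouse 1, -0.997 in mouse 2 and -0.73 in mouse 3, a mean of -0.84 ± 0.139 (SD, n = 3; limma adjusted p = 0.000313). Slc37a4, which brings glucose 6-phosphate into the endoplasmic reticulum for the last step of glucose production, was at -0.78 in mouse 1, -0.94 in mouse 2 and -0.79 in mouse 3, a mean of -0.84 ± 0.0908 (SD, n = 3; limma adjusted p = 0.000228). These 4 genes lay below every other sugar carrier's mean.

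The other glucose carriers lay nearer to 0. Slc5a1 (SGLT1), the sodium-coupled glucose carrier of the late proximal tubule, was at -0.46 in mouse 1, -0.16 in mouse 2 and -0.23 in mouse 3, a mean of -0.29 ± 0.157 (SD, n = 3; limma adjusted p = 0.0278). The call was lost without mouse 1, at -0.20 (limma adjusted p = 0.0512), and without mouse 3, at -0.31 (limma adjusted p = 0.0929). Slc5a2, the main luminal glucose carrier, had no row assigned to it alone and so could not be analysed here. Slc2a1 (GLUT1), the glucose carrier of most cell types, was at -0.00020 in mouse 1, 0.25 in mouse 2 and 0.16 in mouse 3, with a mean of 0.14 and a 95% interval from -0.043 to 0.32. It passed as higher without mouse 1, at 0.21 (limma adjusted p = 0.0448).

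Slc5a3, which takes up the osmolyte myo-inositol in the medulla, varied most within the class: it was at -1.06 in mouse 1, -0.048 in mouse 2 and -0.37 in mouse 3, and its mean of -0.49 ± 0.516 did not pass (limma adjusted p = 0.0571). Without mouse 2 it was at -0.72 (limma adjusted p = 0.00903), and with rows tested singly at -0.49 (limma adjusted p = 0.0475). Slc2a9, a urate carrier, and the sugar phosphate carriers Slc37a2 and Slc37a3 had means of 0.19, 0.23 and 0.063 and did not pass, nor did Slc2a8 at -0.082. Slc37a2 passed without centring, at 0.24 (limma adjusted p = 0.0491), and without mouse 1, at 0.25 (limma adjusted p = 0.0359). Slc2a3, the glucose carrier of neurons and leukocytes, was listed at 0 in every mouse on both of its rows, as were Slc5a4a and Slc5a4b.

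Among monocarboxylate carriers, the main lactate carrier rose and its relatives fell or did not pass. Slc16a1 (MCT1), a proton-coupled carrier of lactate, pyruvate and ketone bodies, was at 0.89 in mouse 1, 0.88 in mouse 2 and 0.95 in mouse 3, a mean of 0.91 ± 0.0357 (SD, n = 3; limma adjusted p = 0.000132). The mice nearly coincided, and the mean would be 1.88-fold if the base were 2. Slc16a7 (MCT2), the relative with a higher affinity for the same substrates, was at -1.22 in mouse 1, -0.98 in mouse 2 and -0.73 in mouse 3, a mean of -0.98 ± 0.248 (SD, n = 3; limma adjusted p = 0.000476). The ranges of Slc16a1 and Slc16a7 lie on opposite sides of 0 in every mouse. Their chaperone basigin, Bsg, was at 0.17, -0.049 and 0.14 in mice 1, 2 and 3 and did not pass, with a mean of 0.086 ± 0.119 (limma adjusted p = 0.387). Emb, the other chaperone of these carriers, was at 0.049 ± 0.248 and did not pass either.

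Slc16a9, a carrier of carnitine and creatine, was at -1.12 in mouse 1, -0.84 in mouse 2 and -0.78 in mouse 3, a mean of -0.91 ± 0.185 (SD, n = 3; limma adjusted p = 0.000349). Its 2 rows gave means of -0.88 and -0.94. Slc16a11 was at -0.44 in mouse 1, -0.45 in mouse 2 and -0.46 in mouse 3, a mean of -0.45 ± 0.0104 (SD, n = 3; limma adjusted p = 0.00193), with the smallest spread of all the carriers tested. Slc16a3 (MCT4), the lactate exporter of glycolytic cells, was at -0.15 in mouse 1, -0.12 in mouse 2 and -0.20 in mouse 3, a mean of -0.16 with a 95% interval from -0.31 to 0.0013. Slc16a10, an aromatic amino acid carrier of this family, was at -0.11 and did not pass.

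Of the 20 amino acid carriers 11 did not pass, and the farthest from 0 were Slc1a6, Slc6a4 and Slc6a2, better known from nerve cells. Of these, Slc6a4 and Slc6a2 carry monoamines rather than amino acids, so 2 of the 8 falls of the class are of monoamine carriers. Slc1a6, a glutamate carrier of cerebellar neurons, was at -1.90 in mouse 1, -1.56 in mouse 2 and -1.34 in mouse 3, a mean of -1.60 ± 0.279 (SD, n = 3; limma adjusted p = 0.000105). A second row gave 0.21 in mouse 1 and was listed at 0 in the others, and with exact 0 kept the gene was at -0.75 (limma adjusted p = 0.0364). Slc6a4, the serotonin carrier, was at -1.30 in mouse 1, -1.26 in mouse 2 and -1.23 in mouse 3, a mean of -1.26 ± 0.0357 (SD, n = 3; limma adjusted p = 5.04e-05), and its 2 rows gave -1.33 and -1.20. Slc6a2, the noradrenaline carrier, was at -1.46 in mouse 1, -1.12 in mouse 2 and -0.99 in mouse 3, a mean of -1.19 ± 0.247 (SD, n = 3; limma adjusted p = 0.000227). Here 2 further rows were listed at 0 in every mouse, and with exact 0 kept the mean was -0.39 (limma adjusted p = 0.0606). The dopamine carrier Slc6a3 did not pass at -0.16 ± 0.129.

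The other falls of the class were those of Slc38a3, Slc7a11, Slc38a4, Slc7a1 and Slc43a1, all nearer to 0. Slc38a3 (SNAT3), which supplies glutamine for ammonia production in the proximal tubule, was at -1.05 in mouse 1, -0.66 in mouse 2 and -0.63 in mouse 3, a mean of -0.78 ± 0.235 (SD, n = 3; limma adjusted p = 0.00106). Another row of this gene gave -1.52 in mouse 1. Slc7a11 (xCT), the exchanger that imports cystine for glutathione, was at -0.42 in mouse 1, -0.53 in mouse 2 and -0.38 in mouse 3, a mean of -0.45 ± 0.0775 (SD, n = 3; limma adjusted p = 0.00253). Its second row was listed at 0 in all mice, and with exact 0 kept it was at -0.22 (limma adjusted p = 0.0528). Slc38a4, a neutral amino acid carrier of the same family, was at -0.19 in mouse 1, -0.59 in mouse 2 and -0.53 in mouse 3, a mean of -0.44 ± 0.213 (SD, n = 3; limma adjusted p = 0.00954), and lost its call without mouse 3, at -0.39 (limma adjusted p = 0.0523).

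The cationic amino acid carrier Slc7a1 was at -0.12 in mouse 1, -0.48 in mouse 2 and -0.25 in mouse 3, a mean of -0.28 ± 0.187 (SD, n = 3; limma adjusted p = 0.037). Without mouse 2 it was at -0.18 (limma adjusted p = 0.19) and without mouse 3 at -0.30 (limma adjusted p = 0.12). Another row of Slc7a1 gave -1.04 in mouse 1 alone. Slc43a1, a carrier of branched-chain amino acids, had a mean of -0.27 ± 0.111 (limma adjusted p = 0.0254), at -0.20 (limma adjusted p = 0.14) without mouse 2 and at -0.29 (limma adjusted p = 0.107) without mouse 3. The class had 1 rise, Slc1a5 (ASCT2), a glutamine and serine carrier of dividing cells, at 0.20 in mouse 1, 0.26 in mouse 2 and 0.32 in mouse 3, a mean of 0.26 ± 0.0595 (SD, n = 3; limma adjusted p = 0.0207). It did not pass without mouse 2, at 0.26 (limma adjusted p = 0.0761), or without mouse 3, at 0.23 (limma adjusted p = 0.186).

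Heterodimer subunits were mixed. Slc3a2 (CD98), the heavy chain that brings several Slc7 carriers to the membrane, was at 0.038 in mouse 1, 0.25 in mouse 2 and 0.27 in mouse 3, a mean of 0.19 ± 0.129 (SD, n = 3; limma adjusted p = 0.09), and passed without mouse 1, at 0.26 (limma adjusted p = 0.0157), and on its higher row tested singly, at 0.27 (limma adjusted p = 0.0301). Its light chains Slc7a5 (LAT1), at -0.15 in mouse 1, -0.023 in mouse 2 and 0.090 in mouse 3, and Slc7a8 (LAT2), at -0.17 in mouse 1, -0.27 in mouse 2 and -0.082 in mouse 3, did not pass. Slc7a5 and Slc7a8 had means of -0.028 and -0.17 with 95% intervals from -0.21 to 0.15 and from -0.34 to -0.0050. Slc7a8 passed when ratios in 2 mice sufficed, at -0.35 (limma adjusted p = 0.00988). That setting averages in another row of Slc7a8, at -0.71 and -0.58 in mice 1 and 3. Slc7a5 turned to 0.033 without mouse 1. Slc7a9, the light chain of the luminal cystine carrier that is mutated in cystinuria, had -1.12 and -0.93 in mice 1 and 2 on 1 row and -1.42 in mouse 1 on another. The 2-mouse row passed in the alternative that accepts it, at -1.02 (limma adjusted p = 0.000742). Its heavy chain Slc3a1 was at -0.058 and 0.17 in mice 2 and 3 and did not pass there, at 0.057 (limma adjusted p = 0.692).

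The luminal carriers Slc1a1 for glutamate, Slc6a18 for glycine and other neutral amino acids, and Slc6a20b did not pass. Slc1a1 was at -0.27 in mouse 1, -0.10 in mouse 2 and 0.070 in mouse 3, and Slc6a18 at 0.12 in mouse 1, 0.26 in mouse 2 and -0.17 in mouse 3. The means of Slc1a1, Slc6a18 and Slc6a20b were -0.10, 0.068 and -0.20, with 95% intervals from -0.30 to 0.10, from -0.15 to 0.29 and from -0.40 to 0.0061. Slc6a18 turned to -0.026 without mouse 2. Cltrn (collectrin), which brings Slc6 carriers to the brush border, fell by 0.73 ± 0.0986 (SD, n = 3; limma adjusted p = 0.000387), with -0.63, -0.82 and -0.74 in mice 1, 2 and 3. The glutamate carriers Slc1a2 and Slc1a3 and the glycine carrier Slc6a9 did not pass, at 0.16, -0.045 and -0.11, nor did Slc38a10 at 0.10. Rows of Slc1a2, Slc6a9 and Slc38a10 differed in sign, and the row farthest from 0 passed when tested singly, at 0.31, -0.39 and 0.29. Slc1a3 turned to 0.0030 without mouse 1.

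Of the peptide carriers, 1 fell and 1 rose. Slc15a2 (PEPT2), the luminal carrier that recovers dipeptides in the late proximal tubule, was at -0.48 in mouse 1, -0.75 in mouse 2 and -0.74 in mouse 3, a mean of -0.66 ± 0.154 (SD, n = 3; limma adjusted p = 0.000949). Slc15a3, a lysosomal histidine and peptide carrier made mainly by immune cells, was at 1.16 in mouse 1, 0.75 in mouse 2 and 0.44 in mouse 3, a mean of 0.78 ± 0.362 (SD, n = 3; limma adjusted p = 0.00342). The mice do not overlap between these genes. Slc15a1 (PEPT1) was at 0.38 in mouse 1 alone. The rows of Slc15a3 differed in size, at 1.53, 1.08 and 0.89 in mice 1, 2 and 3 on the first and 0.79, 0.43 and -0.0085 on the second. As given above, leukocyte markers rose in 10 of 10, and their part in the Slc15a3 value was not tested.

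Nucleoside and ascorbate carriers changed by less, in either direction. Slc29a1 (ENT1), the equilibrative nucleoside carrier of the cell surface, was at 0.27 in mouse 1, 0.28 in mouse 2 and 0.45 in mouse 3, a mean of 0.33 ± 0.104 (SD, n = 3; limma adjusted p = 0.0105), and at 0.27 (limma adjusted p = 0.117) without mouse 3. Slc43a3, a purine base carrier, was at 0.36 in mouse 1, 0.27 in mouse 2 and 0.27 in mouse 3, a mean of 0.30 ± 0.0537 (SD, n = 3; limma adjusted p = 0.0117) with row means of 0.298 and 0.299, and did not pass without mouse 3, at 0.31 (limma adjusted p = 0.075). Slc23a1, the luminal ascorbate carrier, was at -0.41 in mouse 1, -0.33 in mouse 2 and -0.17 in mouse 3, a mean of -0.31 ± 0.121 (SD, n = 3; limma adjusted p = 0.0166), and did not pass without mouse 2, at -0.29 (limma adjusted p = 0.0633). Slc29a3, a lysosomal nucleoside carrier, was at -0.31 in mouse 1, -0.16 in mouse 2 and -0.23 in mouse 3, a mean of -0.23 ± 0.0789 (SD, n = 3; limma adjusted p = 0.0338). Its call was lost without each mouse in turn, at -0.19 (limma adjusted p = 0.0584), -0.27 (limma adjusted p = 0.0635) and -0.23 (limma adjusted p = 0.184) for mice 1, 2 and 3. Slc27a3 of the fatty acid carrier family did not pass at 0.082, and Slc27a2, Slc28a2 and Slc28a3 were listed at 0 in every mouse.

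Rows of the same carrier gave a check within each array. Of 13 carriers with more than 1 row measured in all mice, 9 had rows of 1 sign, against 782 of 1139 genes, or 68.7%, over the whole table. The means of the rows of Slco3a1, Slc22a6 and Slc43a3 differed by 0.00878, 0.00617 and 0.000799. Rows of Slc10a1, Slc15a3 and Slc6a9 differed by 0.87, 0.76 and 0.55.

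**Figure D3:**
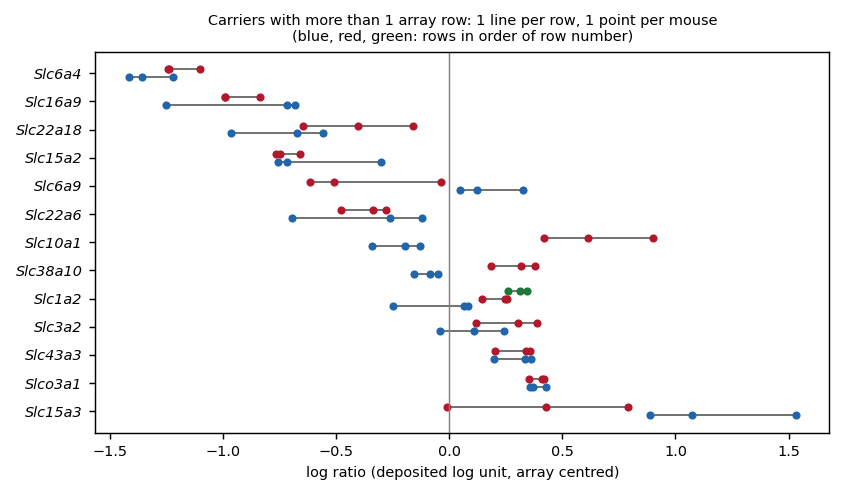
Log ratio (x axis, deposited log unit) of each row of the 13 carriers with several rows; each line is 1 row, spanning the points of the 3 mice. The rows of Slc10a1 lie on opposite sides of 0, while those of Slco3a1 and Slc43a3 coincide.

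Reading exact 0 as missing mattered for some carriers more than others. With exact 0 kept, 25 of the 36 calls were lost, 20 of them falls, while 5 of the 36 values moved by over 1.5 times. Those were Slco1c1, Slc6a2, Slc1a6, Slc22a8 and Slc7a11, each with another row listed at 0 in 2 or all of the mice. The other lost calls moved by less than that, for example Slc16a7 at -0.96 (limma adjusted p = 0.0742), Slc2a5 at -1.17 (limma adjusted p = 0.0558) and Slc15a3 at 0.80 (limma adjusted p = 0.143). None of these examples had a row listed at 0. Rows at 0 from the whole table enter this fit. The spread limma borrows and the number of features adjusted for both depend on them. What part these or the carrier's own rows had in a lost call was not tested.

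**Figure D4:**
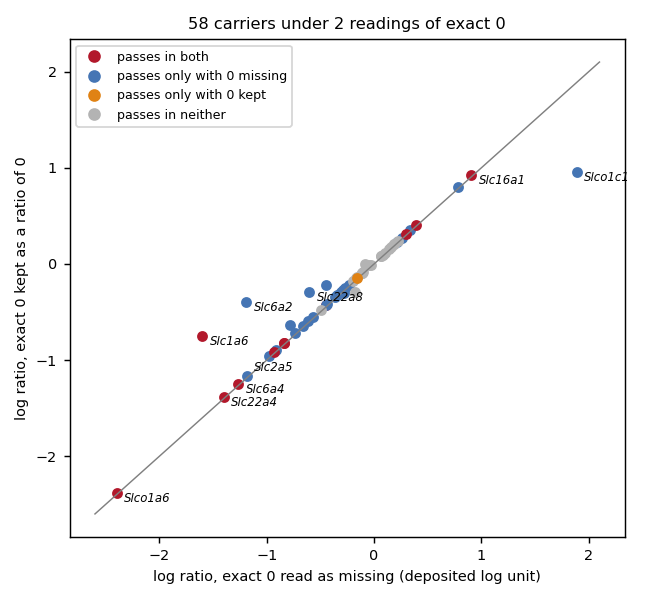
Log ratio of the 58 carriers with exact 0 read as missing (x axis) and kept as a ratio of 0 (y axis), both in the deposited log unit; colours give whether a gene passed in both, 1 or neither. Slco1c1, Slc6a2 and Slc1a6 lie off the diagonal, and Slco1a6, Slc22a4 and Slc16a1 lie on it and pass in both.

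Partner genes of the carriers, from a list of transcription factors, scaffolds, pumps and regulators, were mixed. Over all features 22.3% were lower and 20.8% higher. Of 8 transcription factors 4 fell, 1 rose and 3 did not pass. Hnf4a, a factor that maintains proximal tubule genes, was at -0.40, -0.33 and -0.25 in mice 1, 2 and 3, a mean of -0.32 ± 0.0753 (SD, n = 3; limma adjusted p = 0.00935). Ppara, a driver of fatty acid use, fell further, to -0.91 ± 0.221, and Ppargc1a and Nr1h4 were at -0.45 ± 0.279 and -0.29 ± 0.108. Myc, the growth factor-induced regulator, rose to 1.54 ± 0.241, with 1.27, 1.71 and 1.65 in the 3 mice. Atf4, Hif1a and Nr1i2 did not pass.

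Of 5 scaffolds and chaperones measured, Cltrn and Pdzd3, a brush border scaffold, fell, the latter at -0.68 ± 0.151, and 3 did not pass. Over all features 43.1% passed, and whether the small counts of the partner genes differ from that share was not tested. Of 4 efflux pumps, Abcc1 rose to 1.002 ± 0.235, Abcb1a (P-glycoprotein) and Abcc3 fell to -0.94 ± 0.0887 and -0.24 ± 0.0645, and Abcc2 did not pass. The sodium pump subunit Atp1b1 was at -0.24, 0.39 and 0.28 in mice 1, 2 and 3 and did not pass, and no other pump subunit of the list was measured in all mice. Of 4 regulators, the kinases Sgk1 and Akt2 fell, to -0.39 ± 0.177 and -0.84 ± 0.129, and Rptor and the ubiquitin ligase Nedd4l rose, to 0.35 ± 0.098 and 0.26 ± 0.0737.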

How the data were processed

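Kidney RNA of 3 nephritic mice was measured on 2-colour arrays against 1 normal pool. The authors deposited 1 log ratio per row and array; the labels name no scanner, normalization or log base. Rows were named through the platform annotation and updated by gene identifier in a RefSeq table (GRCm38.p6, names only): 13738 of 16281 had 1 symbol, 52 several, 2491 none. Exact 0 was treated as missing. Each array was centred on its median (0.0151, 0.0160 and 0.0171), rows with a ratio on all arrays were averaged per gene, and 8449 features entered limma 3.58.1 in R 4.3.3 (lmFit with an intercept, eBayes, two-sided, Benjamini-Hochberg at 0.05; prior SD 0.134 with 4.85 degrees of freedom). The script was tested on simulated data. The number of arrays limits the precision.

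The members and lists were chosen with earlier results of these data known. Any member measured in all mice could be named; in each class the highest and lowest passing members and a list of textbook renal carriers were given in full. Lists of partner genes and of markers of proximal tubule, leukocytes, endothelium, erythroid cells, liver and distal nephron were counted. Only 1 erythroid marker (Alas2, which rose) and 1 liver marker (Alb, which fell) were measured; of 7 distal nephron markers 3 fell and 1 rose. Motifs were searched in RefSeq windows. Alternatives were no centring, scaling, single rows, ratios on 2 arrays, exact 0 kept, a robust prior, an ordinary test and each mouse left out. Replicates are the mice named in the labels.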

Additional observations from a re-analysis of the deposited data

How the results depend on the processing

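Counts kept their side within 1.5 times of 28 falls and 8 rises without centring (28 and 9), with scaled arrays (28 and 8), with a robust prior (28 and 8), with rows tested singly (30 and 11) and with ratios on 2 arrays (33 and 9). No called carrier changed sign in any alternative. With rows tested singly only the row farthest from 0 was kept, so an opposite row, as in Slc10a1, could not show there. With exact 0 kept, which adds carriers and all other rows listed at 0 to the fit, the counts were 9 falls and 3 rises: 3 and 0 for sugar, 2 and 0 for amino acid, 3 and 1 for organic ion and 1 and 1 for monocarboxylate carriers. The ordinary test, with 2 residual degrees of freedom, passed 0 falls and 0 rises in every class (30 carriers at an unadjusted p under 0.05). Amino acid rises were 4 with rows tested singly, which takes the row farthest from 0, and 2 with ratios on 2 arrays; sugar rises were 1 without centring.

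Leaving out each mouse gave 22 to 26 falls and 4 to 11 rises: 4 to 6 and 0 to 2 for sugar, 5 to 8 and 0 to 2 for amino acid, 8 to 9 and 2 to 3 for organic ion and 3 and 1 throughout for monocarboxylate carriers. The median of all carriers ran from -0.25 to -0.20, of sugar carriers from -0.35 to -0.20, of amino acid carriers from -0.20 to -0.16, of organic ion carriers from -0.46 to -0.36 and of monocarboxylate carriers from -0.32 to -0.29. With exact 0 kept, the medians were -0.093 for all, -0.0021 for sugar, -0.10 for amino acid, -0.29 for organic ion and -0.14 for monocarboxylate carriers. Rows tested singly gave -0.25 for all and -0.19 for amino acid carriers, ratios on 2 arrays -0.18 for all, and no centring -0.15 for amino acid carriers. Means that turned, none of them called, were Slc1a3 (from -0.070 to 0.0030 over the mice left out), Slc22a12 (from -0.30 to 0.055) and Slc7a5 (from -0.087 to 0.033), each highest without mouse 1, and Slc6a18 (from -0.026 to 0.19), lowest without mouse 2. Where no reason is given, the cause was not tested.

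The design has 1 control pool and no dye swap, so the spread between normal mice and dye bias cannot be told apart from the ratios. No paired analysis was possible because there is 1 group of samples. Signal over background was not analysed here.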

Other observations

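Carriers with a ratio in only 1 or 2 mice were outside the main test. Where ratios in 2 mice sufficed, 15 further carriers were tested, of which 4 fell, 2 rose and 9 did not pass. In the main fit 43.1% of all features passed, 22.3% as lower and 20.8% as higher. The share of all features under the 2-mouse setting was not analysed here. The betaine carrier Slc6a12, which loads an osmolyte in the medulla, was at -1.09 and -1.04 in mice 2 and 3 and passed, at -1.06 (limma adjusted p = 0.000489). The taurine carrier Slc6a6 was at -0.87 in mouse 3 alone. Slc10a7 was at -1.07 in mouse 1 alone. The cationic amino acid carrier Slc7a3 was at 0.48 and 0.33 in mice 2 and 3 and passed, at 0.41 (limma adjusted p = 0.0193), and its relative Slc7a2 at -0.25 in mouse 1 and -0.35 in mouse 3 on different rows. The fatty acid carrier Slc27a4 was at 0.27 and 0.45 in mice 2 and 3 and passed, at 0.36 (limma adjusted p = 0.0319). For 6 carriers a row had mice of opposite sign: Slc3a1 (given above), Slc1a4 (0.20 and -0.23 in mice 2 and 3), Slc38a1 (0.30 and -0.38 in mice 1 and 3), Slc29a2 (-0.31 and 0.24 in mice 1 and 3), Slc27a1 (-0.014 and 0.43 in mice 1 and 3) and Slco6d1 (-0.065 and 0.24 in mice 1 and 3). None of these 6 passed by limma.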
